A study of Schmidtea mediterranea with 60 samples.

Results

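The comparison was of amputated tails of Schmidtea mediterranea, a planarian flatworm known for regrowing missing body parts, 6 hours post amputation (6hpa) under opa1 RNAi and under control RNAi. All libraries with these labels were used, which gave 6 of the 60 libraries in the series. The 3 opa1 RNAi libraries are labelled opa1;egfp and the 3 control libraries egfp;egfp, so both groups received egfp double-stranded RNA (dsRNA) and differed in whether opa1 dsRNA went with it. Another tail group, labelled opa1;drp1 and called combined RNAi here, is given beside them at the same time. The other tails were taken at 0dpa, 1dpa and 2dpa (days post amputation), and whole bodies with opa1 or egfp dsRNA at 1dpa and at homo, a label left unexplained in the sources used here. Ages, strains and sexes are not in the labels, and a replicate may be an animal, a pool or a technical repeat. The p-values therefore reflect only the spread between the libraries fitted, whatever its source. The series title places the study in mitochondrial dynamics and regeneration, and this comparison asks how opa1 RNAi altered transcripts soon after the cut.

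Opa1 is a dynamin-type GTPase of the inner mitochondrial membrane. In animals studied so far it fuses inner membranes and shapes the cristae, and drp1 works in the opposite direction by cutting mitochondria apart. Hours after amputation planarians close the wound and switch on wound-induced genes, and stem cells called neoblasts then divide to build the missing tissue. In planarian RNAi the transcript matching the dsRNA is degraded, and egfp, from a jellyfish, has no counterpart in the animal.

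The sources used here give features by ID and pair none with a gene name, so neither opa1 itself nor any marker of a tissue, wound response or mitochondrial pathway was looked up. The features are therefore described by ID, with no function assigned, and the targeted transcript was not checked. The values are the authors' scaled values, close to read counts adjusted between libraries, and are comparable between libraries for 1 feature but not between features, since they are not divided by length. The values summed to 10238658 to 11574559 in opa1 RNAi libraries and 11918512 to 14472026 in control libraries, with 23503 to 24277 features above 0 in opa1 RNAi libraries and 22365 to 25175 in control libraries. The smallest steps put the depth at about 10400000 to 10800000 reads in opa1 RNAi libraries and 8920000 to 9520000 in control libraries. These depths are estimates and were not checked, as whole reads could not be recovered for nearly all features. The whole-transcriptome correlation was 0.946 to 0.954 within opa1 RNAi, 0.946 to 0.957 within control and 0.938 to 0.955 between the groups, and the first principal component, 26.6% of the variance, set control replicate 1 apart and not the groups.

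At 6hpa 317 of the 20681 features tested passed the threshold (limma over all 36 tail libraries, adjusted p under 0.05, percent called 1.53), of which 127 were higher with opa1 RNAi (0.614%) and 190 were lower (0.919%). The count was far smaller in fits restricted to 6hpa. Libraries at 6hpa varied more within a group (median SD 0.361 on the log2 scale) than those at 0dpa (0.291), 1dpa (0.273) or 2dpa (0.229), while the 36-library fit uses 1 spread for all times. Fitted to the 9 libraries of 6hpa, limma called 32 features (13 higher, 19 lower), and fitted to the 6 libraries compared it called 22 (11 higher, 11 lower). These fits also have fewer residual degrees of freedom, and the part of the spread in the smaller counts was not tested. The 36-library and the 9-library fit shared 28 features, 10 higher and 18 lower with opa1 RNAi. The features described first below are from these 28, while several shares given later are of all 317. Of the 28, 17 were also called with 1 variance weight per time in the 36-library fit and 18 with a weight per library. In all 28 every opa1 RNAi library lay on one side of every control library. Of the 317, 289 were separated in this way, against 11.8% of all features tested. Separation was read from the same 6 libraries whose difference made the calls, so it gives the calls no further support.

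**Figure D1:**
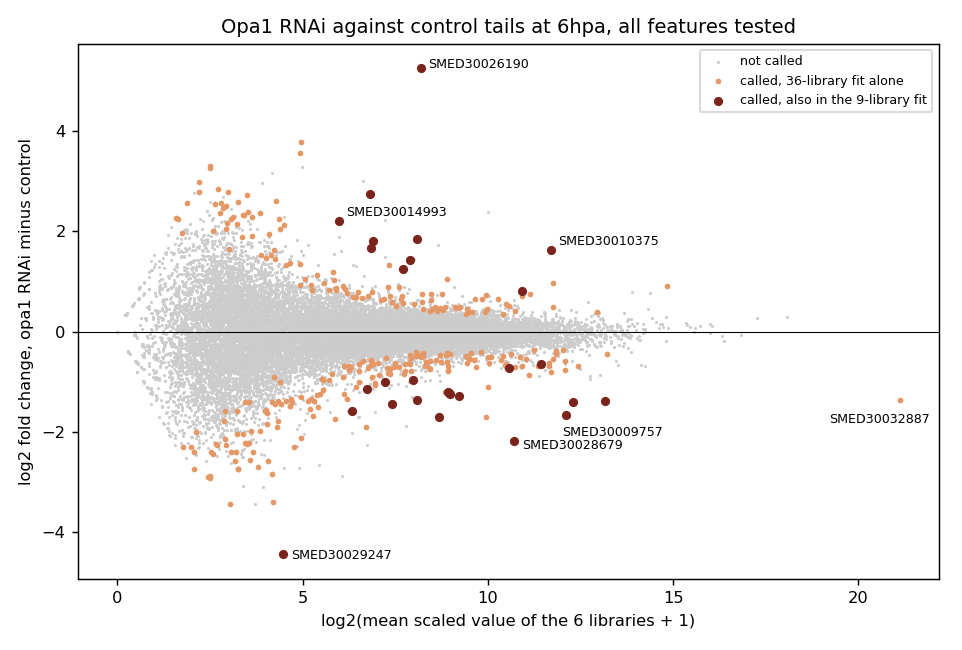
Log2 fold change (opa1 RNAi minus control, 3 libraries each) of every feature tested, against the log2 of its mean scaled value at 6hpa. Of the 317 features called, the 28 in dark red were also called in a fit to the 9 libraries of 6hpa, and the 289 in orange were not.

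Among the features higher with opa1 RNAi, SMED30026190 had the largest fold change. Its scaled values were 624, 413 and 667 in opa1 RNAi tails and 428, 578 and 297 in combined RNAi tails, against 18.2, 5.06 and 25.4 in control tails. All libraries with opa1 dsRNA stood far above all control libraries. The difference of opa1 RNAi and control was 5.26 on the log2 scale (SE 0.703, 38.4-fold, 95% interval 3.84 to 6.69, limma adjusted p = 2.3e-05, and 5.1e-06 in the 9-library fit).

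SMED30010375 had 4885, 5407 and 4686 in opa1 RNAi tails and 4392, 4311 and 3134 in combined RNAi tails, against 2041, 1261 and 1609 in control tails. The lowest opa1 RNAi library was more than double the highest control library, and the rise was 3.1-fold (log2 1.63, SE 0.156, limma adjusted p = 2.58e-08 and 0.000191 in the 9-library fit). SMED30001799 had 464, 394 and 400 in opa1 RNAi tails and 262, 261 and 188 in combined RNAi tails, against 144, 86.3 and 125 in control tails. Here the combined libraries lay between the other groups, and opa1 RNAi was 3.59-fold above control (log2 1.84, SE 0.179, limma adjusted p = 2.66e-08 and 0.000358 in the 9-library fit). SMED30000702 followed the same order, with 167, 191 and 159 in opa1 RNAi tails and 108, 104 and 88.3 in combined RNAi tails, against 65.2, 42.3 and 54.3 in control tails. It was 3.19-fold above control (log2 1.68, SE 0.211, limma adjusted p = 7.03e-06 and 0.00233 in the 9-library fit).

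SMED30014993 had 78.9, 120 and 103 in opa1 RNAi tails and 83.4, 94.1 and 54.7 in combined RNAi tails, against 36.2, 15.6 and 15.6 in control tails. Control replicate 1 was the highest of its group and still below every library with opa1 dsRNA. The rise was 4.61-fold (log2 2.2, SE 0.311, limma adjusted p = 6.01e-05 and 0.00888 in the 9-library fit). SMED30007457 changed less in fold but with tight controls, at 2888, 2131 and 2411 in opa1 RNAi tails and 1347, 1601 and 1481 in combined RNAi tails, against 1442, 1376 and 1383 in control tails. Its rise was 1.75-fold (log2 0.81, SE 0.0997, limma adjusted p = 4.53e-06 and 0.0114 in the 9-library fit). The combined libraries lay on either side of the control range.

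In a further pair the combined RNAi libraries lay well below those with opa1 dsRNA alone. SMED30029696 had 329, 353 and 355 in opa1 RNAi tails and 137, 75.9 and 116 in combined RNAi tails, against 108, 137 and 140 in control tails (2.7-fold above control, log2 1.43, SE 0.344, limma adjusted p = 0.0242 and 0.0076 in the 9-library fit). SMED30009956 had 177, 138 and 260 in opa1 RNAi tails and 35.8, 63.3 and 40.6 in combined RNAi tails, against 29.3, 52.7 and 12.1 in control tails (6.71-fold above control, log2 2.75, SE 0.681, limma adjusted p = 0.0315 and 0.00773 in the 9-library fit). SMED30029696 lost its call in 3 and SMED30009956 in 4 of the 6 fits that left out a library, and both lost it with 1 weight per time (limma adjusted p = 0.383 and 0.356). In both, every combined library was below every opa1 RNAi library and the combined and control ranges overlapped. SMED30018431, by contrast, had 136, 234 and 181 in opa1 RNAi tails and 105, 139 and 126 in combined RNAi tails, against 33.4, 69.6 and 55.3 in control tails. Its combined and control libraries did not overlap. With opa1 RNAi it was 3.5-fold above control (log2 1.81, SE 0.407, limma adjusted p = 0.0165 and 0.00773 in the 9-library fit). It was not called with 1 weight per time (limma adjusted p = 0.268).

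Among the features lower with opa1 RNAi, SMED30028679 had the smallest p of the comparison. Its values were 549, 701 and 554 in opa1 RNAi tails and 2018, 1886 and 1845 in combined RNAi tails, against 3205, 2384 and 2691 in control tails. The 3 groups did not overlap, with combined RNAi in the middle and nearer to control. The fall with opa1 RNAi was 4.58-fold (log2 -2.2, SE 0.154, 95% interval -2.51 to -1.88, limma adjusted p = 7.11e-12 and 5.72e-07 in the 9-library fit).

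SMED30008790 had 161, 189 and 219 in opa1 RNAi tails and 561, 659 and 442 in combined RNAi tails, against 589, 735 and 557 in control tails. SMED30009757 had 1622, 2895 and 1943 in opa1 RNAi tails and 8896, 7989 and 4841 in combined RNAi tails, against 7786, 6414 and 5818 in control tails. SMED30005461 had 4565, 5672 and 4928 in opa1 RNAi tails and 14904, 15200 and 10649 in combined RNAi tails, against 15423, 10754 and 14023 in control tails. In these 3 features the combined and control libraries overlapped and the opa1 RNAi libraries lay below both. SMED30008790 fell 3.29-fold (log2 -1.72, SE 0.254, limma adjusted p = 0.000125 and 0.000191 in the 9-library fit). SMED30009757 fell 3.17-fold (log2 -1.66, SE 0.23, limma adjusted p = 4.15e-05 and 0.00236 in the 9-library fit). SMED30005461 fell 2.63-fold (log2 -1.40, SE 0.16, limma adjusted p = 9.74e-07 and 0.00101 in the 9-library fit).

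In another set of falls the combined RNAi libraries were as low as those with opa1 dsRNA alone. SMED30012212 had 2977, 2834 and 2380 in opa1 RNAi tails and 3120, 3422 and 2584 in combined RNAi tails, against 8831, 5253 and 7975 in control tails. SMED30020097 had 337, 314 and 228 in opa1 RNAi tails and 365, 376 and 305 in combined RNAi tails, against 821, 493 and 763 in control tails. SMED30010319 had 87.6, 73.7 and 114 in opa1 RNAi tails and 67.7, 35.7 and 75.6 in combined RNAi tails, against 221, 276 and 248 in control tails. Control replicate 2 was the lowest control for the first pair and the highest for SMED30010319, and each group with opa1 dsRNA was below it throughout. SMED30012212 fell 2.64-fold (log2 -1.40, SE 0.15, limma adjusted p = 2.27e-07 and 0.00134 in the 9-library fit). SMED30020097 fell 2.34-fold (log2 -1.23, SE 0.174, limma adjusted p = 6.49e-05). SMED30010319 fell 2.72-fold (log2 -1.45, SE 0.228, limma adjusted p = 0.00038 and 0.0387 in the 9-library fit). SMED30034619 lay between these patterns. It had 37.1, 32.7 and 48.2 in opa1 RNAi tails and 74.9, 73.9 and 86.7 in combined RNAi tails, against 138, 113 and 107 in control tails. It was 3-fold lower with opa1 RNAi (limma adjusted p = 0.000501 and 0.00773 in the 9-library fit). SMED30020097 was past the threshold in the 9-library fit (adjusted p = 0.0117) and just outside it over the 6 libraries alone (adjusted p = 0.0512).

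**Figure D2:**
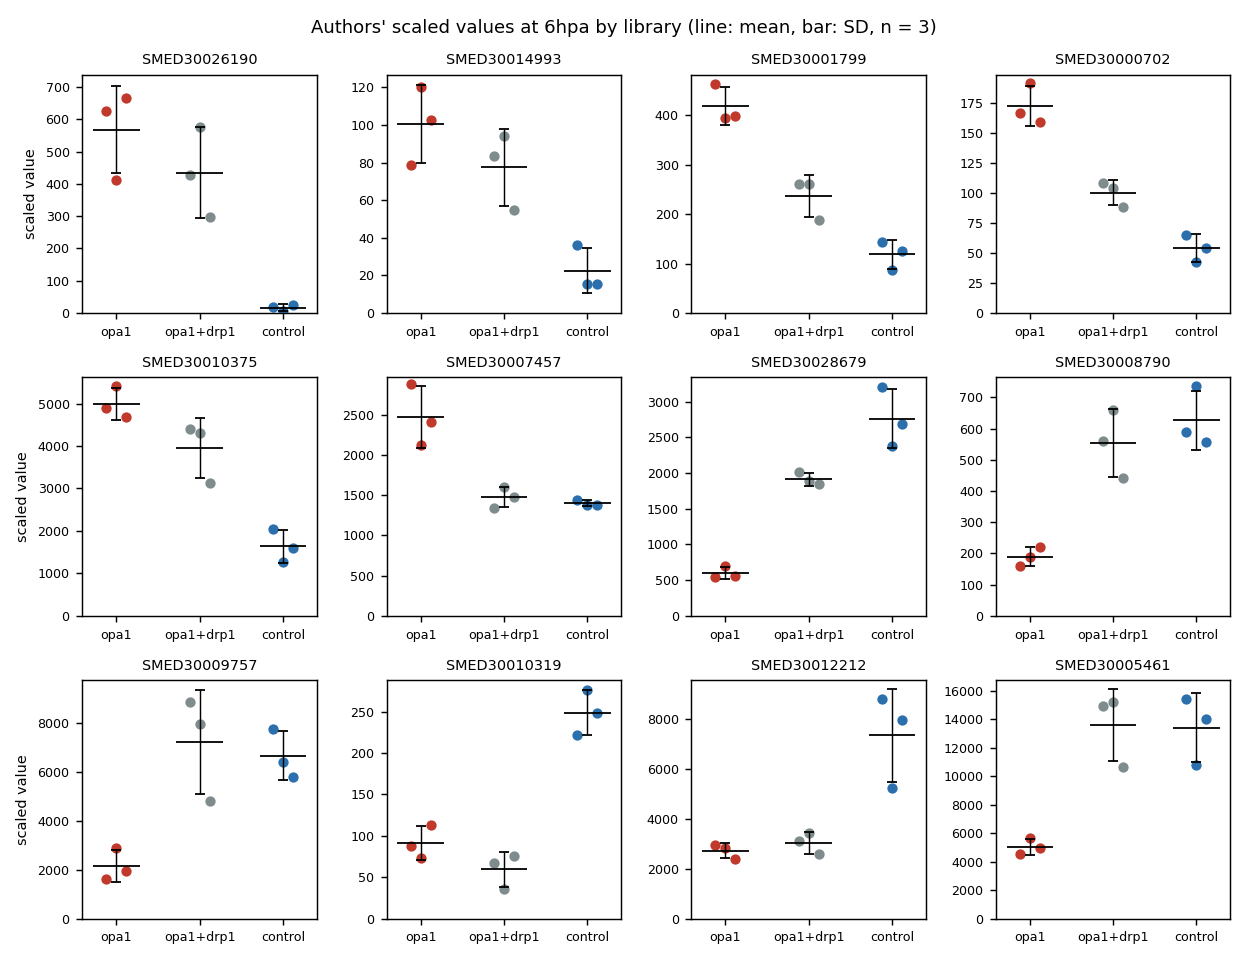
Scaled values at 6hpa of 12 features, by library, in opa1 RNAi (red), opa1 with drp1 RNAi (grey) and control tails (blue). Black lines are means and bars SDs over 3 libraries, and in all 12 panels the red points do not overlap the blue ones.

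The comparisons of combined RNAi with control and with opa1 RNAi use the same libraries as the comparison of opa1 RNAi with control, so their values are set side by side and not read against each other. Combined RNAi against control called 126 features at 6hpa (0.609%) and combined RNAi against opa1 RNAi called 984 (4.76%). Both counts, and the adjusted p-values below, come from the fit over all tail libraries, whose spread is shared by all times. In that fit opa1 RNAi against control called 317 features, against 32 in the fit to all libraries of 6hpa alone. No count from 6hpa alone is given for the combined RNAi contrasts, so the sizes of these counts are not compared. For SMED30005461 the log2 difference was -1.40 for opa1 RNAi minus control, 0.02 for combined RNAi minus control (limma adjusted p = 0.975) and 1.41 for combined minus opa1 RNAi (limma adjusted p = 1.2e-06). For SMED30012212 the same differences were -1.40, -1.25 (limma adjusted p = 5.15e-06) and 0.15 (limma adjusted p = 0.572). SMED30027152, a feature noted in earlier results for falling wherever drp1 dsRNA was given, had 1086, 922 and 1056 in opa1 RNAi tails and 89.5, 77.7 and 103 in combined RNAi tails, against 969, 958 and 988 in control tails. The opa1 RNAi and control ranges overlapped, and their log2 difference was 0.07 (95% interval -0.27 to 0.41, limma adjusted p = 0.887).

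Of the 28 features called by both fits, 17 fell under the naming rule and 11 did not, and those named here from among the 11 were chosen after their values were seen. SMED30029247 was at 0, 0 and 1.06 in opa1 RNAi tails and 16.8, 12.1 and 23.9 in combined RNAi tails, against 93.4, 25.6 and 7.68 in control tails. By the estimated steps the opa1 RNAi values correspond to about 1 read at most in a library. They lie below the limit of 2.9 to 3.33 that a count of 0 allows. The control libraries also spread more than 10-fold, and no fold change is given. SMED30005334 had 263, 340 and 282 in opa1 RNAi tails, against 143, 102 and 126 in control tails. That was a 2.38-fold rise (limma adjusted p = 0.000559 and 0.0365 in the 9-library fit). SMED30024219 had 427, 233 and 402 in opa1 RNAi tails, against 871, 750 and 897 in control tails. That was a 2.44-fold fall (limma adjusted p = 0.000639 and 0.00787 in the 9-library fit). The remaining falls outside the naming rule, 8 in number, were between 1.56-fold for SMED30004599 and 2.58-fold for SMED30018088.

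Feature length relative to the median feature was read from the ratio of estimated count to TPM (a length-scaled share of the library) in the whole-body tables, and its median was 0.382 for the 18 falls and 1.44 for the 10 rises, against 1.38 for all features tested. Of the 18 falls, 11 were under 0.5, while the longest, SMED30010319, was at 4.17. Among all 317 called, the median was 1.33 for the 127 that rose and 0.995 for the 190 that fell. With the features ordered by level and cut into 4 equal classes, the share called was 1.12% in the lowest class and 2.15% in the highest.

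The other 289 features passed in the 36-library fit alone, and not in the 9-library fit. SMED30012926 is one, with 79.6, 29 and 57.7 in opa1 RNAi tails and 2.97, 4.63 and 6.63 in combined RNAi tails, against 0, 7.82 and 5.17 in control tails. No library of the other groups reached those with opa1 dsRNA alone, but its adjusted p was 0.0177 with all 36 libraries and 0.0689 with the 9 (both limma). SMED30022038 had 234, 280 and 167 in opa1 RNAi tails, against 48.1, 140 and 99.1 in control tails, with adjusted p of 0.00589 and 0.15 in the same fits of limma. SMED30030464 had 428, 263 and 490 in opa1 RNAi tails, against 3151, 653 and 943 in control tails, where control replicate 1 stood more than 3-fold above the other controls (limma adjusted p = 0.0483 and 0.18). Control replicate 1 was likewise the highest control for SMED30002834 at 231, SMED30012770 at 81, SMED30019734 at 105 and SMED30035690 at 137, and none of these was called in the 9-library fit. SMED30009420, at 10.7, 27.8 and 30 in opa1 RNAi tails against 58.2, 53.6 and 71.8 in control tails, was not called there either (limma adjusted p = 0.248).

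Leaving out control replicate 1 lowered the count of called features to 127, and leaving out control replicate 2 raised it to 727, while leaving out any other library gave 275 to 305. Of the 317, 58 were called in each of the 6 fits that left out a library, and of the 28 called by both fits, 19 were. The split into rises and falls moved with these libraries too, from 40.1% higher among the 317 to 24.4% without control replicate 1 and 60.4% without control replicate 2. It was 23.3% without opa1 RNAi replicate 1, 28.5% without opa1 RNAi replicate 3 and 52.0% without control replicate 3. On the TPM table, which holds part of each library's features, 3749 features were called and 98.3% of them were higher. No direction of the whole response is therefore read from the counts.

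**Figure D3:**
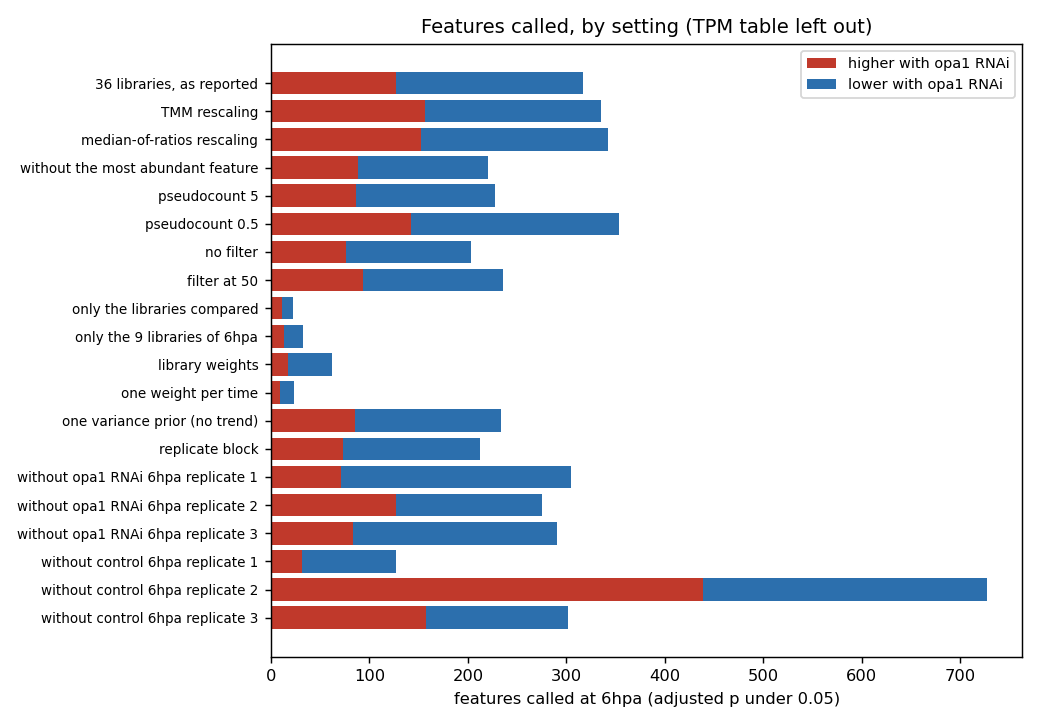
Features called at 6hpa as higher (red) or lower (blue) with opa1 RNAi under each setting except the TPM table, which is left out, counted from 0. The bars fall from 317 to between 22 and 62 where 6hpa libraries get their own spread or weight, and run from 127 to 727 when 1 library is left out.

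One feature, SMED30032887, held the largest value in each of the 36 tail libraries. It had 1094000, 1566000 and 1105000 in opa1 RNAi tails and 2975000, 3206000 and 2336000 in combined RNAi tails, against 4225000, 2526000 and 3097000 in control tails. Its share of a library's summed values was 10.7%, 13.5% and 10.4% in opa1 RNAi tails and 22.9%, 22.9% and 18.8% in combined RNAi tails, against 29.2%, 21.2% and 25% in control tails. The share averaged 11.5 ± 1.73% in opa1 RNAi tails and 25.1 ± 4% in control tails (SD, n = 3 each, exact two-sided permutation p = 0.1, the smallest that 3 against 3 libraries can give). The log2 fold change was -1.38 (SE 0.227, limma adjusted p = 0.000639 over 36 libraries, 0.498 over the 9 of 6hpa and 0.605 over the 6 compared). The groups did not overlap, but the difference did not pass in the fits of 6hpa alone. The rest of the summed values was 9140000 to 10000000 in opa1 RNAi tails and 9270000 to 10200000 in control tails. On the scaled values the lower sums of the opa1 RNAi libraries thus lay in this feature. This holds after the authors' scaling only, since the estimated reads were 10400000 to 10800000 in opa1 RNAi tails and 8920000 to 9520000 in control tails. Leaving it out and rescaling gave 220 called features. In such bulk samples fewer cells of a type and less RNA per cell cannot be told apart.

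At the other times the same contrast compares other libraries, so its fold changes use none of 6hpa, but its p-values come from the same fit and share 1 spread with 6hpa. Over the same 20681 features it called 51 at 0dpa (0.247%, with 0.111% higher and 0.135% lower), 106 at 1dpa (0.513%, 0.256% each way) and 210 at 2dpa (1.02%, 0.556% higher and 0.459% lower). Of the 317 at 6hpa, 21 were called with the same sign at 0dpa (6.62% of the 317 and 41.2% of the 51), 28 at 1dpa (8.83% and 26.4% of the 106) and 26 at 2dpa (8.2% and 12.4% of the 210). None was called with the opposite sign at 0dpa or 1dpa, and 2 were at 2dpa, 1 in each direction. Across all features tested the fold changes at 6hpa correlated at r = 0.128 with those at 0dpa, 0.158 at 1dpa and 0.112 at 2dpa, a description over features, which are not independent.

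The signs of the fold changes do not depend on that spread. Of the 127 features higher at 6hpa, 94 were also higher at 0dpa, 96 at 1dpa and 69 at 2dpa. Of the 190 lower, 161 were also lower at 0dpa, 147 at 1dpa and 132 at 2dpa. Over all features tested the share with the same sign was 56.0% at 0dpa, 59.7% at 1dpa and 52.7% at 2dpa. For the 28 called by both fits, the sign was the same in all 28 both at 0dpa and at 1dpa and in 23 at 2dpa, and 14, 11 and 10 of them were called at those times.

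Called at all 4 times with 1 sign were 13 features, 6 higher and 7 lower. SMED30014993 stayed at a like size, with log2 fold changes of 2.23 (0dpa), 2.2 (6hpa), 2.44 (1dpa) and 2.51 (2dpa), each with an SE of 0.311. SMED30001799 was at 1.82, 1.84, 1.3 and 0.81 over the same times (SE 0.179), and SMED30007457 at 0.72, 0.81, 1.5 and 1.49 (SE 0.0997). The other rises of this kind were SMED30002753, SMED30012309 and SMED30028363, with 1.05, 0.91 and 1.04 at 6hpa. None of those 3 passed the 9-library fit (limma adjusted p = 0.0792, 0.0828 and 0.449). In SMED30002753 opa1 RNAi replicate 1, at 956, stood above replicates 2 and 3, at 400 and 599, with controls of 308, 292 and 287.

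Among the falls at all 4 times, SMED30028679 had log2 fold changes of -1.33 (0dpa), -2.2 (6hpa), -1.46 (1dpa) and -0.94 (2dpa), with an SE of 0.154. SMED30012212 was at -1.38, -1.40, -2.05 and -2.24 over the same times (SE 0.15), and SMED30020097 at -1.46, -1.23, -1.56 and -2.28 (SE 0.174). SMED30010319 was at -1.98, -1.45, -1.97 and -1.72 (SE 0.228), and SMED30005461 at -1.16, -1.40, -1.24 and -1.05 (SE 0.16). SMED30008414 and SMED30009717 fell by 1.21 and 0.86 on the log2 scale at 6hpa and were not called by the 9-library fit (limma adjusted p = 0.0706 and 0.0617).

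Whether the effect at 6hpa differed from that at another time was tested as an interaction in limma. Against 0dpa no feature was called (0 of 20681 and 1618 at unadjusted p under 0.05, with 1 called at a pseudocount of 0.5), but leaving out 1 library gave up to 32 (without control replicate 2 at 6hpa) and 11 without opa1 RNAi replicate 1 at 6hpa. Against 1dpa 10 were called (0.0484%), 4 with a higher effect at 6hpa (0.0193%) and 6 with a lower one (0.029%), and this fell to 0 when only the libraries compared were fitted. Against 2dpa 53 were called (0.256%), 23 with a higher effect (0.111%) and 30 with a lower one (0.145%), and 14 when only the libraries compared were fitted.

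SMED30026190 had the largest change of effect among these. Its mean scaled value was 53.2 ± 39.3 in opa1 RNAi tails and 2.7 ± 4.67 in control tails at 0dpa, while at 6hpa it was 568 ± 136 in opa1 RNAi tails and 16.2 ± 10.3 in control tails. At 1dpa it was 11.7 ± 3.54 in opa1 RNAi tails and 4.66 ± 2.79 in control tails, and at 2dpa 9.35 ± 2.13 in opa1 RNAi tails and 36.6 ± 8.47 in control tails (SD, n = 3 each). The high values in opa1 RNAi tails were thus at 6hpa and, lower, at 0dpa. At 0dpa the control SD exceeded the control mean, so the size of the log2 effect there depends on the 1 added before the log. The effect at 6hpa exceeded that at 2dpa by 7.12 on the log2 scale (SE 0.995, limma adjusted p = 0.000171).

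SMED30010375 averaged 4153 ± 1060 in opa1 RNAi tails and 1499 ± 305 in control tails at 0dpa, while at 6hpa it was 4993 ± 372 in opa1 RNAi tails and 1637 ± 391 in control tails. At 1dpa it averaged 3453 ± 215 in opa1 RNAi tails and 2452 ± 351 in control tails, and at 2dpa 2800 ± 363 in opa1 RNAi tails and 2690 ± 278 in control tails (SD, n = 3 each). The groups met by 2dpa as the control level was higher and the opa1 RNAi level lower than at 6hpa. The effect at 6hpa exceeded that at 1dpa by 1.13 (SE 0.221, limma adjusted p = 0.0316) and that at 2dpa by 1.58 on the log2 scale (limma adjusted p = 0.000171). SMED30027156 went the other way, with 653, 474 and 499 in opa1 RNAi tails against 742, 816 and 938 in control tails at 6hpa, and at 2dpa means of 815 ± 18.5 in opa1 RNAi tails and 433 ± 9.19 in control tails. It was lower with opa1 RNAi at 6hpa (log2 -0.63, SE 0.116, limma adjusted p = 0.00334, 0.19 in the 9-library fit) and higher at 2dpa (log2 0.91, limma adjusted p = 3.44e-06).

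**Figure D4:**
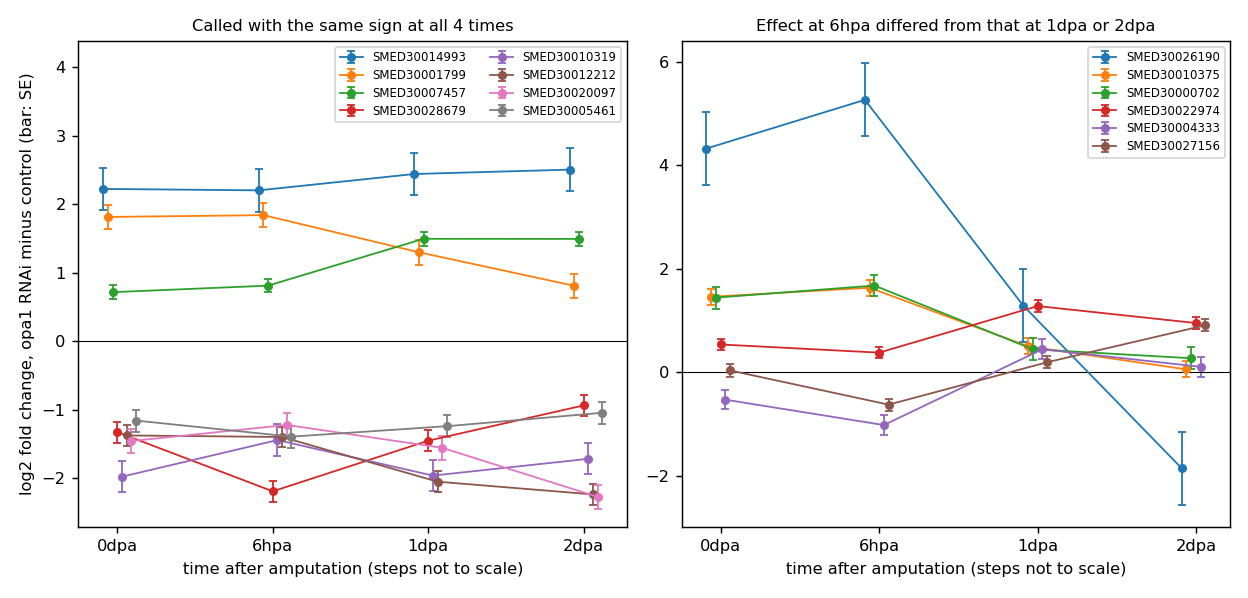
Log2 fold change of opa1 RNAi minus control tails at 4 times, with its SE, for 8 features called with 1 sign at all times (left) and 6 whose effect at 6hpa differed from that at 1dpa or 2dpa (right). SMED30014993 stays between 2.2 and 2.51, while SMED30026190 goes through 4.32, 5.26, 1.29 and -1.86. The 4.32 rests on very low control values at 0dpa (2.7 ± 4.67).

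Amputation itself changes many transcripts within hours, and features were grouped by that change in combined RNAi tails. The fold changes of opa1 RNAi against control do not use the combined RNAi libraries. The calls do, since their spread comes from the fit over all tail libraries, so class and call are not independent. Of 3137 features that rose more than 2-fold in combined RNAi tails at 6hpa against 0dpa, 9 were higher (0.287%) and 23 lower (0.733%) with opa1 RNAi against control at 6hpa, and their median fold change was -0.14 on the log2 scale. Of 2866 that fell more than 2-fold, 22 were higher (0.768%) and 35 lower (1.22%), with a median of 0.05. Of the other 14678, 96 were higher (0.654%) and 132 lower (0.899%), with a median of -0.01, and the median over all features tested was -0.03. These shares rest on the 317 calls, whose split moves with 1 library, and were not tested against each other.

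The whole-body libraries, a separate experiment with opa1 or egfp dsRNA, gave a further look at the same features. Opa1 RNAi against control called 7961 of 22889 features at homo (34.8%, 19.2% higher and 15.6% lower) and 2564 at 1dpa (11.2%, 4.57% higher and 6.64% lower) by edgeR's quasi-likelihood test. These counts move with single libraries, to 5128 at homo without control replicate 3, and at 1dpa to 1503 without opa1 RNAi replicate 1, 1586 without control replicate 1 and 1698 without control replicate 3. Of the 127 features higher in tails at 6hpa, 120 were measured, and at homo 56 of them were called higher (46.7%) and 11 lower (9.17%). At 1dpa 23 were called higher (19.2%) and 12 lower (10%). Of the 190 lower in tails, 186 were measured, and at homo 62 were called higher (33.3%) and 27 lower (14.5%). At 1dpa 8 were called higher (4.3%) and 39 lower (21.0%). The shares of tail rises called higher were thus above those of all features at both times, while the tail falls were called lower above that share at 1dpa and not at homo. Calls in the opposite direction were also above the shares of all features for tail falls at homo (33.3% called higher, against 19.2%) and for tail rises at 1dpa (10% called lower, against 6.64%). Across the 20115 features in both fits the correlation of fold changes was 0.0837 at homo and 0.00279 at 1dpa.

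Of the 28 features called by both fits, 27 were measured in whole bodies. At homo 16 were called with the sign of the tails and 2 with the opposite sign, and at 1dpa 13 and 1. The opposite calls were SMED30023208 and SMED30016382 at homo and SMED30016382 at 1dpa, both chosen here after their values were seen. SMED30010319 averaged 4.3 ± 0.789 CPM (counts scaled to the library's effective size) in opa1 RNAi bodies and 35.6 ± 4 in control bodies at homo, and at 1dpa 10.2 ± 0.402 in opa1 RNAi bodies and 44.9 ± 2.74 in control bodies (SD, n = 3 each). That was a log2 fold change of -3.05 at homo and -2.14 at 1dpa (edgeR adjusted p = 3.31e-16 and 4.03e-14), against -1.45 in tails at 6hpa.

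SMED30007457 averaged 542 ± 76.3 CPM in opa1 RNAi bodies and 171 ± 6.07 in control bodies at homo, and at 1dpa 367 ± 11.3 in opa1 RNAi bodies and 131 ± 5.27 in control bodies (SD, n = 3 each). Both were rises (log2 1.66 and 1.49, edgeR adjusted p = 2.36e-15 and 9.16e-14). SMED30005461 and SMED30008790 fell in bodies at homo (log2 -0.65 and -0.64, edgeR adjusted p = 0.00139 and 0.000135) and at 1dpa (log2 -1.18 and -1.20, edgeR adjusted p = 2.42e-06 and 3.18e-08). SMED30028679, with 1770 ± 353 CPM in opa1 RNAi bodies and 2130 ± 524 in control bodies, did not pass at homo (edgeR adjusted p = 0.136), but fell at 1dpa, with 639 ± 79.7 CPM in opa1 RNAi bodies and 3000 ± 200 CPM in control bodies (log2 -2.23, edgeR adjusted p = 3.73e-12). SMED30026190 was low in bodies, at 2.64 ± 1.34 CPM in opa1 RNAi bodies and 0.0831 ± 0.144 in control bodies at homo. Its log2 fold change there was 4.83 (edgeR adjusted p = 0.000142), a size not well determined, since the control SD exceeded the control mean. It was not called at 1dpa (edgeR adjusted p = 0.493). Of the tail features measured in bodies, 20 of the 120 rises were called higher at both body times (16.7%) and 9 of the 186 falls were called lower at both (4.84%), against 1.63% called higher at both and 0.376% called lower at both of all 22889 features.

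**Figure D5:**
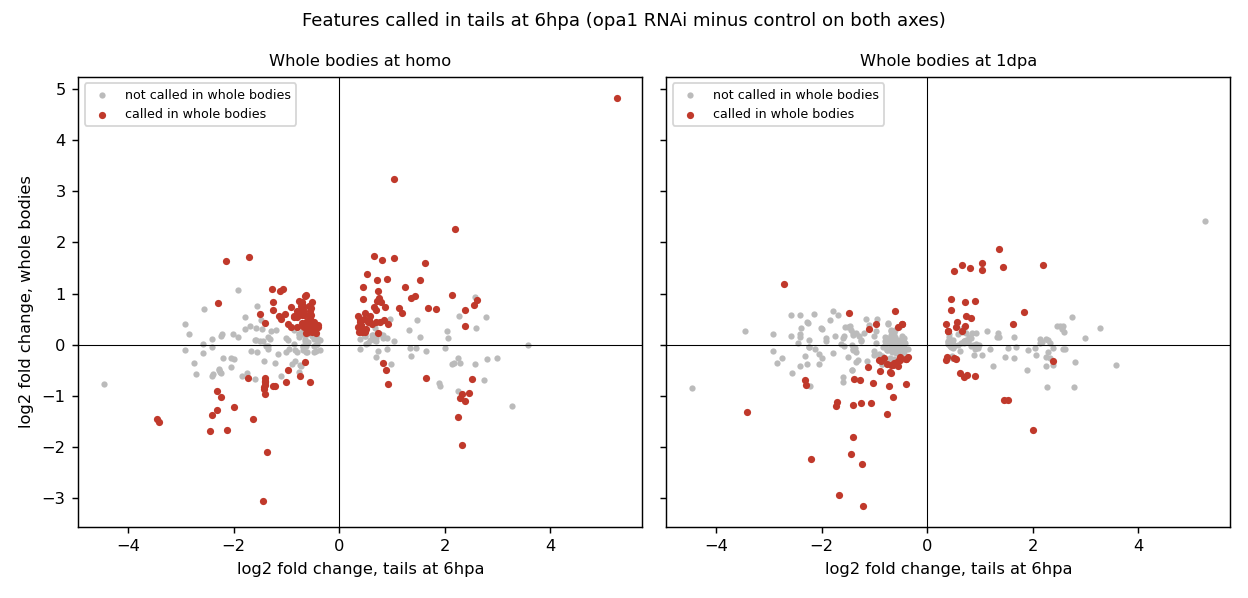
Log2 fold changes of the features called in tails at 6hpa (x axis) and in whole bodies (y axis) at homo and 1dpa, opa1 RNAi minus control on both axes. Red points were called in whole bodies, and at homo 62 features lower in tails were called higher in bodies.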

How the data were processed

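For tails the authors deposited a signal that they had scaled between libraries, by a method not given in the sources used here. It equals the deposited TPM times 1 factor per feature and 1 per library within an SD of 0.011 on the log2 scale (12933 features). For whole bodies the authors deposited estimated counts from kallisto, going by the table's name, with build and version not given in the sources used here. They were rounded to whole numbers, and 91.6% to 93.5% of a library's values, zeros included, were exactly whole, with no tolerance. Library sums were 10611093 to 14328908 counts. Libraries were made from 400 ng of total RNA, per the labels' protocols.

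Tail values were tested on the log2(value + 1) scale, which understates changes of low features, with limma 3.58.1 and a mean-dependent prior over 36 libraries and 12 group means. Features that reached 10 in no fewer than 3 libraries were tested, 20681 of 36035. Whole bodies were tested with edgeR 4.0.16 (TMM scaling, filter for low counts, quasi-likelihood test). P-values were adjusted by Benjamini-Hochberg over all features tested, with a threshold of 0.05. Features named were the 10 largest rises and 10 largest falls among called features without overlap and with a mean of at least 50 in the higher group, the 5 rises and 5 falls with the smallest p, and all called at 4 times with 1 sign. To these were added the 3 rises and 3 falls with the strongest calls of the same sign in tails and at both body times, the 2 with the smallest p in each interaction that made calls, the most abundant feature, and 5 from earlier results. The members, rule and alternatives were chosen with earlier results of these data known. The alternatives included DESeq2 1.42.0 for whole bodies. The scripts were tested on simulated data. The deposited TPM values served only for an alternative. The 95% intervals of log2 fold changes come from limma and cover the spread between libraries, and limits for a count of 0 cover counting error only.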

Additional observations from a re-analysis of the deposited data

Results flagged for a closer look

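For 8 named features the effect of opa1 RNAi at 6hpa differed from that at a later time by limma's interaction test (adjusted p under 0.05), out of 10 called against 1dpa and 53 against 2dpa. Values are the log2 effect at 6hpa minus that at the other time.

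Against 2dpa, SMED30026190 differed by 7.12 (adjusted p = 0.000171 by limma), SMED30010375 by 1.58 (0.000171), SMED30000702 by 1.40 (0.0224), SMED30007457 by -0.68 (0.0187), SMED30028679 by -1.26 (0.00267) and SMED30027156 by -1.53 (8.72e-07). The effects themselves were 5.26 at 6hpa and -1.86 at 2dpa for SMED30026190, and -2.20 and -0.94 for SMED30028679.

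Against 1dpa, SMED30010375 differed by 1.13 (adjusted p = 0.0316 by limma), SMED30007457 by -0.69 (0.05 after rounding), SMED30027156 by -0.82 (0.0362), SMED30022974 by -0.90 (0.0316) and SMED30004333 by -1.46 (0.0316). SMED30022974 had an effect of 0.38 at 6hpa that did not pass the threshold and of 1.28 at 1dpa. SMED30004333 had 103, 68 and 71.5 in opa1 RNAi tails against 143, 179 and 166 in control tails at 6hpa. None of the 10 calls against 1dpa stood when only the libraries compared were fitted.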

How the results depend on the processing

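Log2 fold changes of the named features kept their sign in all 672 values recomputed, and 564 also stayed on their side of the threshold. The kept signs were largely fixed in advance. Several settings change only the spread or the features tested and return the same fold change. Leaving out 1 library cannot turn the sign of a feature whose groups do not overlap. The count of 317 at 6hpa moved to 22 with the libraries compared alone, 32 with the 9 libraries of 6hpa, 62 with library weights, 23 with 1 weight per time (chosen after seeing the data), 203 with no filter and 3749 on TPM, and ran from 127 to 727 with 1 library left out. The TPM table holds part of a library's features, with sums of 621852 to 656865 in opa1 RNAi and 473866 to 546519 in control tails. The median over all features on it was 0.26 on the log2 scale, with 98.3% of its calls higher. Of the named features 28 could be recomputed on it, and SMED30028679, SMED30034619 and SMED30032887 were not among them. TMM scaling gave 335, 46.6% of them higher. The effect at 6hpa against 0dpa, 0 called, gave 1 at a pseudocount of 0.5 and 0 to 32 with 1 library left out. Against 1dpa, 10 called gave 0 with no filter, with the libraries compared alone, with 1 weight per time and with 1 variance prior, 19 with library weights, and 0 to 26 with 1 library left out. Against 2dpa, 53 called gave 14 with the libraries compared alone, 35 with 1 weight per time, 32 with 1 variance prior, 707 on TPM, and 27 to 148 with 1 library left out. SMED30032887 was at -1.38 with the 9 or the 6 libraries, where it lost its call. It kept its call at -1.35 with library weights (limma adjusted p = 0.004) and at -1.38 with 1 weight per time (limma adjusted p = 0.023). With 1 library of 6hpa left out it ran from -1.55 to -1.18 and was called in all 6 fits. Whole-body counts ran from 5128 to 8184 at homo and 1503 to 2235 at 1dpa with 1 library left out, and the other settings kept them within 1.5 times. The cause of these moves was not tested.

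Replicate numbers were not used as pairs in the main fit. Deviations of same-numbered libraries from their group means correlated at -0.0411, -0.0431 and -0.0387. Opa1 RNAi replicates 1, 2 and 3 with control replicates 3, 1 and 2 gave 0.0845, 0.0818 and 0.0801, and the other pairings -0.0509 to -0.032. Each deviation was taken from a mean of 3 libraries, so these correlations depend on each other and cannot settle whether samples were paired. A fit with that offset pairing was not run. With the replicate block 212 features were called at 6hpa (73 higher, 139 lower, 202 of them among the 317), and 0 in the change against 1dpa, and no named feature gained or lost its call at 6hpa. An edgeR fit on recovered reads was not run, as whole reads could not be recovered for nearly all features.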
